A study of Mus musculus with 9 samples.

Results

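Messenger RNA of the genes that mark endothelial cells, the inner lining of blood vessels, was followed across 9 libraries of mouse vascular tissue. The 34 genes were taken from a list of endothelial identity genes and looked up by symbol among the 54532 genes of the deposited expression table. All 34 were found, and all 34 were among the 15610 genes whose mean level was high enough to be tested. They held 3 members known mainly from capillary endothelium (Plvap, Aqp1 and Kdr) and 5 known mainly from arterial endothelium (Gja4, Gja5, Dll4, Sox17 and Bmx). The other 26 were taken as general members, with no vascular bed assigned. No measured value was used to choose them, although results of these data were known when the list was drawn up.

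The libraries came from C57BL/6 mice aged 24 weeks and formed 3 groups of 3. By genotype the groups were ApoE-/-/SAHHWT, ApoE-/-/SAHH+/- and ApoE-/-/SAHH+/- given betaine, and they are called SAHH-WT, SAHH-het and SAHH-het+betaine here as they were labelled. By label, the ApoE-/- background, which makes mice prone to atherosclerosis, was common to all groups. SAHH, encoded by Ahcy, hydrolyses S-adenosylhomocysteine, the product of methylation reactions, and betaine donates a methyl group that turns homocysteine into methionine. No source used here gives the betaine dose or duration, the vessel that was dissected or the way the alleles were made. Whether the 3 libraries of each group stand for 3 different animals is not stated either, so all p-values describe the spread between these libraries, which may be partly technical. There was no ApoE wild-type group and no betaine-treated SAHH-WT group.

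Endothelial cells are held together by adherens and tight junction proteins and respond to VEGF, angiopoietin, Notch, BMP and sphingosine 1-phosphate signals through receptors that few other cells carry. Their identity is maintained by transcription factors of the ETS and SOXF families. Arteries, capillaries and veins carry different sets of these genes: Notch signalling and gap junction connexins mark arteries, while genes for permeability and exchange mark capillaries. Vascular samples that include surrounding fat hold the capillaries of that fat beside the lining of the large vessel.

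The libraries held 15837600 to 17381974 fragments as recovered from the deposited values, with 21829 to 24467 genes above 0. Ahcy, the gene of the SAHH allele, was at 8.90 ± 2.32 FPKM in SAHH-WT, 4.04 ± 0.65 in SAHH-het and 8.66 ± 1.02 in SAHH-het+betaine (SD, n = 3 each). FPKM counts fragments per length of exon and per a divisor set for each library, so levels can be compared between genes. Apoe was at 2.91 to 6.11 FPKM in SAHH-WT, 149 to 225 in SAHH-het and 5.51 to 8.88 in SAHH-het+betaine. The level in the libraries labelled SAHH-het goes against the ApoE-/- label, and every direction given for that group rests on those libraries. Ahcy was higher in every SAHH-het+betaine library than in every SAHH-het one, at a log2 difference of -0.02 from SAHH-WT. The Ahcy level of SAHH-het+betaine thus does not show its SAHH+/- label. Betaine and a difference in genotype or labels cannot be told apart in comparisons with that group. SAHH-WT 1 held 9625 FPKM of adrenal cortex markers against at most 2.73 in any other library. Smooth muscle markers, taken as those of the vessel wall, summed to 60.3 to 216 FPKM and those of brown fat to 512 to 13311. Smooth muscle members were uneven, with mean levels of 84.0 FPKM for Acta2, 12.4 for Myh11, 0.73 for Tagln and 0.23 for Myocd. Genes of fat were thus present beside those of smooth muscle, and the share of vessel wall was not measured. In such bulk tissue, fewer endothelial cells and less RNA per endothelial cell cannot be told apart.

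No member was at 0 in any library, though a level above 0 in bulk tissue does not show which cells carry the gene. The water channel gene Aqp1 had the highest mean level over the 9 libraries, 201 FPKM, ahead of the vascular cadherin gene Cdh5 at 80.5, the TGF-beta co-receptor gene Eng at 75.2, the lipid receptor gene S1pr1 at 53.1 and the adhesion molecule gene Pecam1 at 51.6. The lowest mean levels were those of the connexin gene Gja5 at 1.60 FPKM and the kinase gene Bmx at 0.96, both arterial members. On average capillary members lay above arterial ones in all 9 libraries. Neighbours in this order, such as Cdh5 and Eng, differed by less than their spread over libraries, which ran from 32.1 to 171 FPKM for Cdh5 and from 35.3 to 191 for Eng.

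Members varied together from library to library. SAHH-het 2 had the highest value of all 9 libraries for 30 of the 34 members, and SAHH-WT 1 the lowest for 22. The summed level of the 34 genes was 500, 869 and 1060 FPKM in SAHH-WT, 1115, 2090 and 933 in SAHH-het, and 630, 782 and 1027 in SAHH-het+betaine. Libraries of the 3 groups overlapped in this sum, and SAHH-het 2 alone stood far above the next highest, SAHH-het 1. The median over members of SAHH-het 2 divided by the mean of SAHH-het 1 and SAHH-het 3 was 2.06. The 4 members that were not highest in SAHH-het 2 were Plvap, highest in SAHH-WT 1, and Bmx, Gja5 and Vwf, highest in SAHH-WT 3. This library order is on the deposited FPKM scale, where all genes summed to 279298 in SAHH-WT 1 and up to 566309 in SAHH-het+betaine 3. The order with libraries rescaled to the same sum was not computed.

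**Figure D1:**
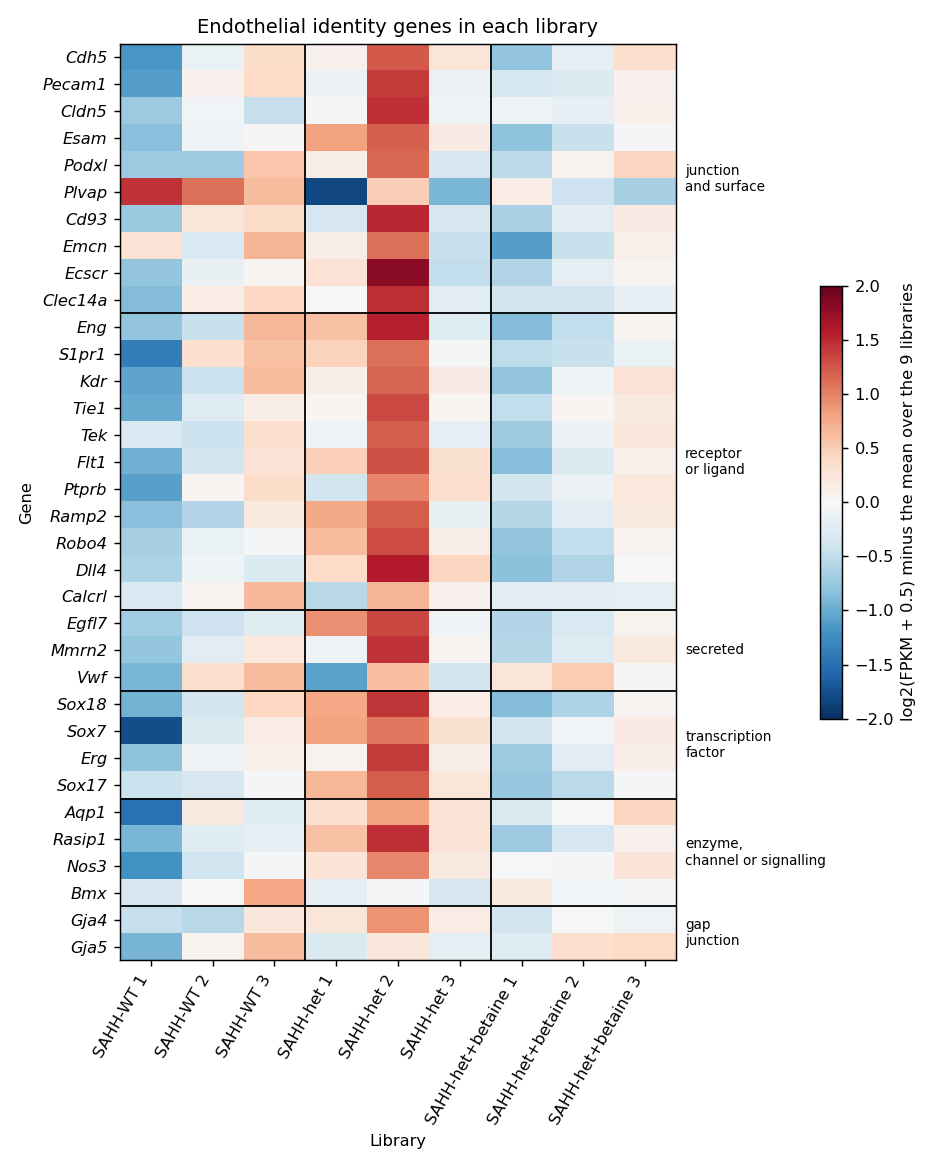
Level of each of the 34 endothelial genes (rows, grouped by role) in each library (columns), as log2(FPKM + 0.5) minus the gene's mean over the 9 libraries, with red above and blue below the mean. SAHH-het 2 is the highest library for 30 genes and SAHH-WT 1 the lowest for 22, while Plvap is highest in the 3 SAHH-WT libraries and lowest in SAHH-het 1.

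The first comparison asked whether loss of 1 SAHH allele, as labelled, went with a different level of endothelial genes. Apoe also differed between these groups (149 to 225 FPKM in SAHH-het, 2.91 to 6.11 in SAHH-WT), and the part of each cannot be told apart. In value, 29 of the 34 members were higher in SAHH-het than in SAHH-WT and 5 were lower (Plvap, Bmx, Vwf, Calcrl and Gja5). Their median log2 difference was 0.81, against 0.01 over all genes tested. None of the 34 passed the test, limma on log2(FPKM + 0.5) with Benjamini-Hochberg adjustment over all genes at 0.05, which called 4 genes or 0.0256% of those tested. The lowest adjusted p of a member was 0.337. At an unadjusted p under 0.05 there were 13 members. Of these 12 were higher (35.3% of members, background 7.3% of all genes) and 1, Plvap, was lower (2.94%, background 5.16%). limma with voom on the recovered fragments also called 0 members, with 13 at an unadjusted p under 0.05 (38.2%, all genes 12.2%).

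Without overlap between the groups, 10 members were higher in SAHH-het (29.4%, background 8.33%): Aqp1, Esam, Egfl7, Flt1, Robo4, Rasip1, Sox7, Dll4, Nos3 and Sox17. By this rule SAHH-het 1 and SAHH-het 3 were each above every SAHH-WT library for all 10, which is no separate evidence. Plvap was the 1 member whose SAHH-het libraries all lay below SAHH-WT (2.94%, background 8.28%). The size of the shared difference rested on single libraries. The median over members was 0.37 without SAHH-het 2, 0.51 without SAHH-WT 1 and 0.055 without both, when 19 of 34 members were above 0. So did the share of members at an unadjusted p under 0.05 in either direction, which was 38.2% against 12.5% of all genes with every library in. Without SAHH-het 2 it was 17.6% (6 members), near the 16.9% of all genes. Without SAHH-WT 1 it was 20.6% (7 members) against 12.7%, and without both it was 8.82% (3 members), below the 20.9% of all genes. With each library rescaled to the same sum it was 11.8% (4 members) against 8.58%. SAHH-het 2 and SAHH-WT 1 were picked from these same values, as the highest and the lowest library for most members. Smaller differences of most members without them, here and below, were thus fixed by that choice. They show only how far the size rests on these libraries.

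**Figure D2:**
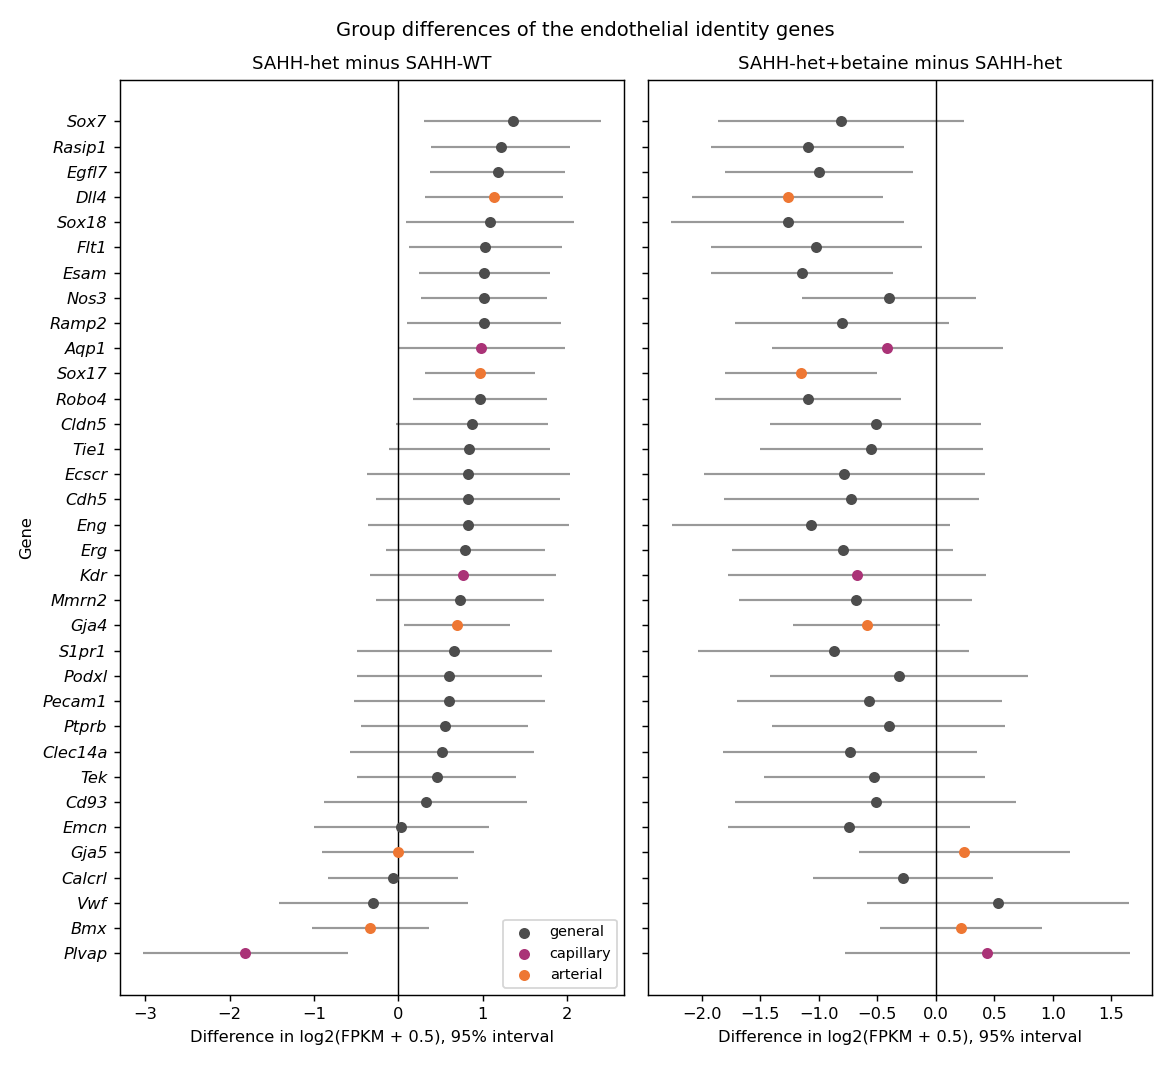
Difference in log2(FPKM + 0.5) between groups for each of the 34 genes, as points coloured by vascular bed with 95% intervals from limma, for SAHH-het minus SAHH-WT (left) and SAHH-het+betaine minus SAHH-het (right). In the left panel 29 points lie above 0 and Plvap stands apart at -1.81, and in the right panel 30 points lie below 0. Both panels use the same SAHH-het libraries.

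Plvap (chromosome 8, 71497765 to 71511752, minus strand, GRCm38) encodes the protein of the diaphragms that span fenestrae and caveolae in capillary endothelium. It was measured at 59.2, 46.1 and 33.4 FPKM in SAHH-WT, 5.64, 30.0 and 11.1 in SAHH-het, and 23.6, 15.9 and 13.3 in SAHH-het+betaine. All SAHH-WT libraries lay above all others, and SAHH-het 1 was the lowest. The group means were 46.2 ± 12.9, 15.6 ± 12.8 and 17.6 ± 5.39 FPKM (SD, n = 3 each). The log2 difference of SAHH-het from SAHH-WT was -1.81 (SE 0.53, adjusted p = 0.337), with a 95% interval of -3.03 to -0.60. Plvap was highest in SAHH-WT 1, the library with adrenal cortex genes. Without that library the difference was -1.62, and without SAHH-WT 1 and SAHH-het 2 together it was -2.24.

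Aqp1 (chromosome 6, 55336432 to 55348555, plus strand), a water channel of capillary endothelium that red cells and mesothelium also carry, was measured at 65.6, 211 and 157 FPKM in SAHH-WT, 234, 326 and 222 in SAHH-het, and 152, 187 and 251 in SAHH-het+betaine. SAHH-WT 1 was far below the rest, and all SAHH-het libraries lay above all SAHH-WT ones. The log2 difference of SAHH-het from SAHH-WT was 0.98 (SE 0.43, adjusted p = 0.400), and 0.50 without SAHH-WT 1. The summed level of erythroid markers, 901 to 7023 FPKM in SAHH-WT and 3472 to 11097 in SAHH-het, was also lowest in SAHH-WT 1. Mesothelium markers summed to 13.1, 65.6 and 93.1 FPKM in SAHH-WT and to 15.8, 55.0 and 56.1 in SAHH-het. All 5 of them were lower in value in SAHH-het, with a median log2 difference of -0.22. The part of either cell type in the Aqp1 values was not tested. Kdr (chromosome 5, 75932827 to 75978458, minus strand), the main signalling receptor for VEGF, was measured at 14.7, 22.8 and 48.3 FPKM in SAHH-WT, 33.6, 70.03 and 34.9 in SAHH-het, and 17.7, 29.2 and 38.2 in SAHH-het+betaine. Its groups overlapped, SAHH-WT 3 lying above SAHH-het 1 and SAHH-het 3. The log2 difference was 0.77 (SE 0.48, adjusted p = 0.502), and 0.043 without SAHH-WT 1 and SAHH-het 2.

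**Figure D3:**
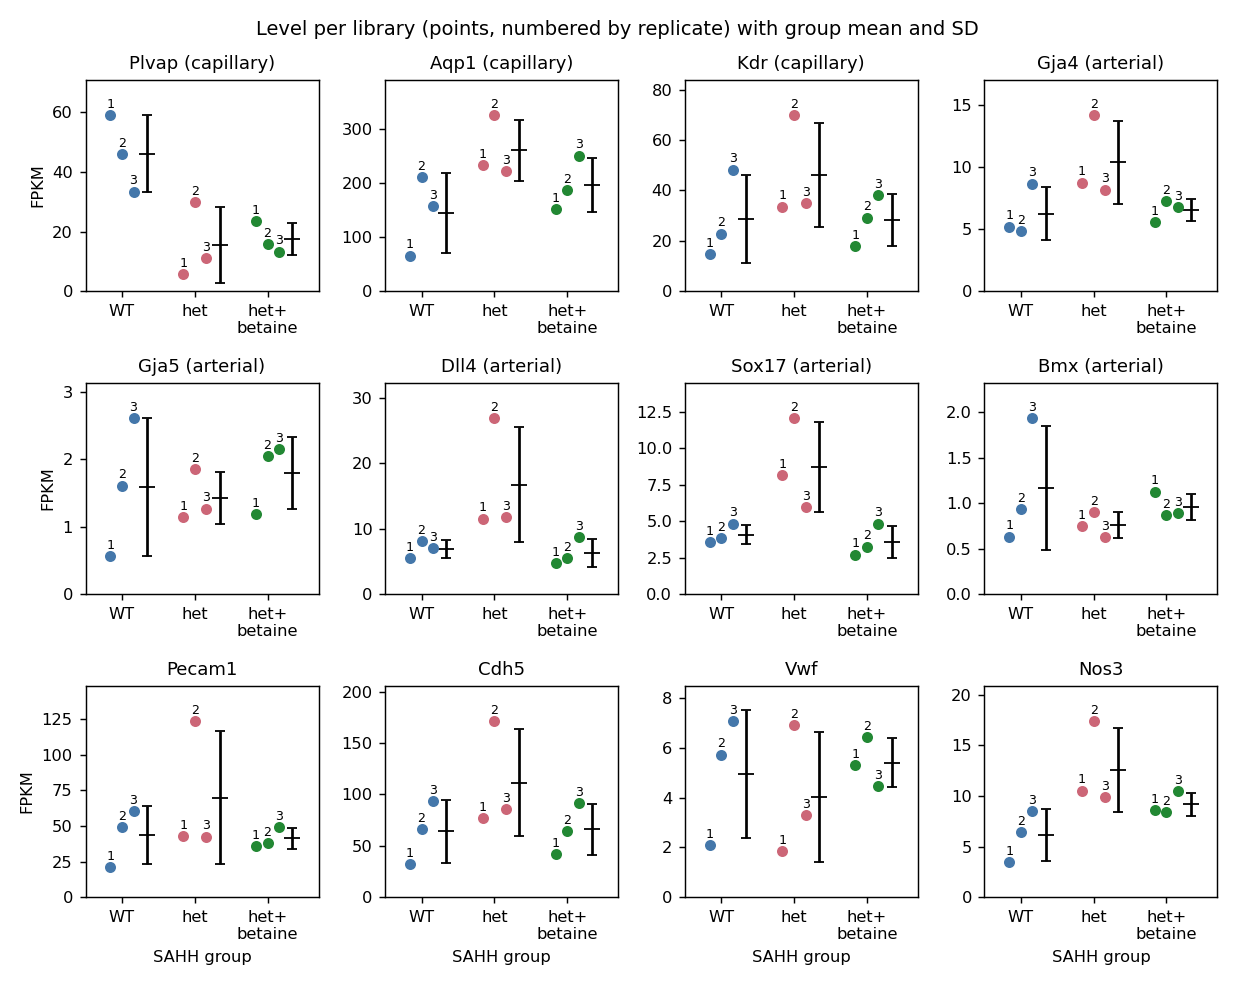
FPKM of the capillary and arterial members and of Pecam1, Cdh5, Vwf and Nos3 in each library (points numbered by replicate), with the group mean and SD beside them (n = 3). SAHH-het 2 lies above the other libraries in most panels, while Plvap is highest in the 3 SAHH-WT libraries and Bmx, Gja5 and Vwf are highest in SAHH-WT 3.

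Among the arterial members, Dll4, Sox17 and Gja4 were higher in value in SAHH-het, and Gja5 and Bmx were not. The stretch just before the transcription start is where endothelial transcription factors are known to bind many of these genes, and it is shown for arterial members whose windows end at the annotated gene start and, as a general endothelial gene, for Flt1. RefSeq windows of GRCm38.p6 were found for 18 of the 34 members. Capitals mark the ETS core GGAAG or its other strand CTTCC.
Dll4 (chr2:119325534-119325783, plus strand): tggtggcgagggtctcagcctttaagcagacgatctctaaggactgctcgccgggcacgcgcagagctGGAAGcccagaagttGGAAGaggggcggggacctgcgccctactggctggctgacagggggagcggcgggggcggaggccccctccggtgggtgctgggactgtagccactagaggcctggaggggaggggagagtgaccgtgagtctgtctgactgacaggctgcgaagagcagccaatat
Gja4 (chr4:127314040-127314289, minus strand): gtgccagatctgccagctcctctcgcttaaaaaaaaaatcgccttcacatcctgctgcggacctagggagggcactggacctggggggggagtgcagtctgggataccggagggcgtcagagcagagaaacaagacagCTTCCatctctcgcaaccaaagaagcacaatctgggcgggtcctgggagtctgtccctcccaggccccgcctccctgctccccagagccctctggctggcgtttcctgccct
Bmx (chrX:164258194-164258443, minus strand): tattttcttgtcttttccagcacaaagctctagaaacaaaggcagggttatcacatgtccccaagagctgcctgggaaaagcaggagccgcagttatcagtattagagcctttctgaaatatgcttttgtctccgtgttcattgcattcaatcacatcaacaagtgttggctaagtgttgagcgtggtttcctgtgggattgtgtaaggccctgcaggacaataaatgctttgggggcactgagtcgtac
Flt1 (chr5:147726012-147726261, minus strand): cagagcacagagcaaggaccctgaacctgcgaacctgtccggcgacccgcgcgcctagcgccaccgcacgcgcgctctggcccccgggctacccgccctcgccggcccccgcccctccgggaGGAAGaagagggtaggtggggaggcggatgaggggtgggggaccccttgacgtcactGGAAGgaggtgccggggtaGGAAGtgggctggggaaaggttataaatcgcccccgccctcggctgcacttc
The Flt1 window held 3 ETS cores, that of Dll4 2, that of Gja4 1 and that of Bmx 0. Over the 22 windows of the 18 matched members, 17 held an ETS core on either strand (77.3%), against 64.1% of 32841 windows of all genes. The SOX core ACAAT or ATTGT was in 8 of the 22 (36.4%), against 27.7% of all windows, and the Bmx window held 2. The 2 motifs cannot overlap one another, and such matches describe the windows and show no binding.

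Dll4 (chromosome 2, 119325784 to 119335962, plus strand), the Notch ligand of arterial and sprouting endothelium, was measured at 5.46, 8.13 and 7.07 FPKM in SAHH-WT, 11.6, 26.9 and 11.8 in SAHH-het, and 4.70, 5.56 and 8.76 in SAHH-het+betaine. All SAHH-het libraries lay above all others, and SAHH-het 2 was the highest by far. The log2 difference of SAHH-het from SAHH-WT was 1.13 (SE 0.36, adjusted p = 0.351), and 0.59 without SAHH-WT 1 and SAHH-het 2. Sox17 (chromosome 1, 4490931 to 4497354, minus strand), a SOXF transcription factor needed for arterial identity, was measured at 3.56, 3.87 and 4.84 FPKM in SAHH-WT, 8.17, 12.1 and 5.97 in SAHH-het, and 2.71, 3.27 and 4.83 in SAHH-het+betaine. Again every SAHH-het library was above all 6 others. The log2 difference was 0.97 (SE 0.28, adjusted p = 0.337), and 0.63 without SAHH-WT 1 and SAHH-het 2.

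Gja4 (chromosome 4, 127311421 to 127314039, minus strand), a gap junction connexin of arterial endothelium, was measured at 5.21, 4.86 and 8.68 FPKM in SAHH-WT, 8.76, 14.2 and 8.19 in SAHH-het, and 5.58, 7.30 and 6.80 in SAHH-het+betaine. Only SAHH-WT 3 reached into the SAHH-het range. The log2 difference was 0.69 (SE 0.28, adjusted p = 0.385). Gja5 (chromosome 3, 96904693 to 97077416, plus strand), the other arterial connexin, was measured at 0.563, 1.61 and 2.61 FPKM in SAHH-WT, 1.15, 1.86 and 1.27 in SAHH-het, and 1.18, 2.05 and 2.15 in SAHH-het+betaine. SAHH-WT held both the lowest and the highest library. The log2 difference was -0.01 (SE 0.39, adjusted p = 0.995), and its sign changed with the pseudocount and with quantile normalization. Bmx (chromosome X, 164192842 to 164258193, minus strand), a TEC-family kinase of arterial endothelium, was measured at 0.634, 0.937 and 1.94 FPKM in SAHH-WT, 0.749, 0.905 and 0.628 in SAHH-het, and 1.13, 0.870 and 0.889 in SAHH-het+betaine, on 29 to 95 fragments per library. SAHH-WT 3 stood above the rest and the groups overlapped. The log2 difference was -0.34 (SE 0.30, adjusted p = 0.633).

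Set side by side as the mean log2(FPKM + 0.5) of the 3 capillary members minus that of the 5 arterial members, the capillary excess was 3.81, 4.09 and 3.71 in SAHH-WT, 3.004, 3.67 and 3.41 in SAHH-het, and 3.72, 3.64 and 3.60 in SAHH-het+betaine. The SAHH-het libraries were all below the SAHH-WT ones, with means of 3.36 ± 0.33 and 3.87 ± 0.20 (SD, n = 3 each). This order came from Plvap. With Aqp1 and Kdr alone as the capillary side, the excess was 3.99 ± 0.42 in SAHH-WT, 4.37 ± 0.07 in SAHH-het and 4.34 ± 0.23 in SAHH-het+betaine, so that SAHH-het lay above SAHH-WT. No test was made of this score. The 2 arterial connexins also differed, with Gja5 at 0.108 to 0.331 of the level of Gja4 in SAHH-WT, 0.131 to 0.155 in SAHH-het and 0.212 to 0.317 in SAHH-het+betaine.

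Of the 10 junction and surface members, 9 were higher in value in SAHH-het, with a median log2 difference of 0.60. Cdh5, the cadherin of endothelial adherens junctions, was measured at 32.1, 66.5 and 93.4 FPKM in SAHH-WT, 77.1, 171 and 85.6 in SAHH-het, and 41.9, 64.7 and 91.8 in SAHH-het+betaine. SAHH-WT 3 lay above SAHH-het 1 and SAHH-het 3, and the log2 difference was 0.83 (SE 0.48, adjusted p = 0.469), or 0.043 without SAHH-WT 1 and SAHH-het 2. Pecam1, the adhesion molecule of endothelial contacts that platelets and leukocytes share, was measured at 21.3, 49.5 and 60.4 FPKM in SAHH-WT, 43.0, 124 and 42.6 in SAHH-het, and 36.2, 38.3 and 49.4 in SAHH-het+betaine. Apart from SAHH-het 2 the SAHH-het libraries lay inside the SAHH-WT range, and the log2 difference, 0.60 (SE 0.50, adjusted p = 0.598), was -0.35 without SAHH-WT 1 and SAHH-het 2. Esam, an adhesion molecule of endothelial tight junctions, was measured at 21.6, 36.5 and 39.2 FPKM in SAHH-WT, 67.8, 89.3 and 43.6 in SAHH-het, and 22.02, 28.5 and 38.0 in SAHH-het+betaine. Its SAHH-het libraries were all above the other 6, and the log2 difference was 1.02 (SE 0.34, adjusted p = 0.358). The remaining surface members were Cldn5, the claudin of endothelial tight junctions, Podxl and Emcn, sialomucins of the luminal surface, and Cd93, Clec14a and Ecscr, transmembrane proteins of endothelial adhesion and migration. Their log2 differences ran from 0.04 for Emcn to 0.88 for Cldn5, and the groups of all 6 overlapped.

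Of the 11 receptors and ligands, 10 were higher in value in SAHH-het, with a median of 0.83. Flt1, the VEGF receptor that also traps the ligand, was at 1.03, and Robo4, the endothelial roundabout receptor that stabilises vessels, was measured at 8.67, 12.8 and 13.8 FPKM in SAHH-WT, 22.02, 35.7 and 15.3 in SAHH-het, and 7.91, 9.82 and 14.8 in SAHH-het+betaine. The SAHH-het libraries of Robo4 were above all 6 others, and its log2 difference was 0.96 (SE 0.35, adjusted p = 0.370). The angiopoietin receptor Tek was at 0.45, its partner Tie1 at 0.84 and the phosphatase Ptprb, which acts on both junctions and Tek, at 0.55. Eng, co-receptor for BMP ligands, was at 0.83 and S1pr1, receptor for sphingosine 1-phosphate, at 0.66. The 2 parts of the adrenomedullin receptor differed, with Ramp2 at 1.01 and Calcrl at -0.06.

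Among the secreted members, Egfl7, a secreted protein of sprouting endothelium, was measured at 20.1, 24.4 and 27.7 FPKM in SAHH-WT, 62.4, 83.3 and 31.1 in SAHH-het, and 21.7, 26.3 and 34.3 in SAHH-het+betaine. SAHH-het 1 and SAHH-het 2 were well above the rest, and SAHH-het 3 was only slightly above SAHH-WT 3 and below SAHH-het+betaine 3. The log2 difference from SAHH-WT was 1.18 (SE 0.35, adjusted p = 0.340). Mmrn2, an extracellular matrix partner of Cd93 and Clec14a, was at 0.73. Vwf, which tethers platelets to the vessel wall and is also made by megakaryocytes, was measured at 2.10, 5.73 and 7.07 FPKM in SAHH-WT, 1.84, 6.91 and 3.31 in SAHH-het, and 5.30, 6.43 and 4.46 in SAHH-het+betaine. The groups overlapped widely and SAHH-het 1 was lowest, with a log2 difference of -0.30 (SE 0.49, adjusted p = 0.796). Platelet markers summed to 16.4 to 45.2 FPKM in SAHH-WT and 39.1 to 96.0 in SAHH-het, and their part in the Vwf values was not tested.

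All 4 transcription factors were higher in value in SAHH-het, with a median of 1.03. Sox7, of the SOXF family, was measured at 2.35, 7.55 and 10.4 FPKM in SAHH-WT, 16.6, 19.7 and 11.6 in SAHH-het, and 7.05, 8.85 and 10.4 in SAHH-het+betaine. SAHH-WT 1 was far below every other library, and the SAHH-het libraries were above all 6 others. The log2 difference was 1.36 (SE 0.46, adjusted p = 0.358), the highest of the 34 with every library in. Without SAHH-WT 1 it was 0.78, below the 1.06 of Egfl7. Sox18, its relative in blood and lymphatic endothelium, was measured at 20.8, 31.1 and 54.1 FPKM in SAHH-WT, 69.6, 110 and 45.1 in SAHH-het, and 21.9, 26.1 and 41.9 in SAHH-het+betaine. SAHH-WT 3 reached above SAHH-het 3, and the log2 difference was 1.09 (SE 0.44, adjusted p = 0.387). Erg, the ETS factor of endothelial identity, was at 0.79 with overlapping groups.

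Nos3, which makes the vasodilator nitric oxide, was measured at 3.47, 6.46 and 8.52 FPKM in SAHH-WT, 10.5, 17.4 and 9.89 in SAHH-het, and 8.604, 8.40 and 10.5 in SAHH-het+betaine. All SAHH-het libraries were above all SAHH-WT ones, SAHH-WT 1 was the lowest and SAHH-het+betaine overlapped both groups. The log2 difference of SAHH-het from SAHH-WT was 1.01 (SE 0.33, adjusted p = 0.357), and 0.43 without SAHH-WT 1 and SAHH-het 2. Rasip1, a Ras-interacting protein needed for vessel lumen formation, was measured at 4.84, 8.08 and 8.49 FPKM in SAHH-WT, 14.8, 27.2 and 11.6 in SAHH-het, and 5.58, 7.49 and 10.3 in SAHH-het+betaine. The SAHH-het libraries lay above the other 6, and the log2 difference was 1.21 (SE 0.36, adjusted p = 0.339). Exons of 9 of the 34 members overlap those of another annotated gene (Dll4, Ecscr, Egfl7, Eng, Gja5, Nos3, Ramp2, Rasip1 and Sox17), on the opposite strand for 8. No source used here says whether counting used strand, so their levels may include reads of the other gene.

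The second comparison set betaine-treated SAHH-het against untreated SAHH-het, as labelled. In value, 30 of the 34 members were lower with betaine and 4 were higher (Vwf, Plvap, Bmx and Gja5). The median log2 difference was -0.70, against -0.01 over all genes. This comparison uses the same SAHH-het libraries as the first, so the opposite signs are not separate evidence. None of the 34 passed the test, which called 3 genes in all (0.0192%), and the lowest adjusted p of a member was 0.517. At an unadjusted p under 0.05, 8 members were lower (23.5%, background 4.4%) and 0 were higher (background 3.63%). limma with voom also called 0 members and had 8 at an unadjusted p under 0.05 (23.5%, all genes 7.49%). The median was -0.28 without SAHH-het 2, when 6 members (17.6%) had an unadjusted p under 0.05, against 6.56% of all genes. The members at that p numbered 13 without SAHH-het 3 (38.2%, all genes 11.7%), 4 without SAHH-het+betaine 1 (11.8%, all genes 4.83%) and 5 without SAHH-het+betaine 2 (14.7%, all genes 4.9%).

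Without overlap between the groups, 10 members were lower with betaine (29.4%, background 8.16%), namely S1pr1, Sox18, Esam, Flt1, Robo4, Rasip1, Sox7, Dll4, Gja4 and Sox17, and 0 were higher (background 8.21%). Sox17 had group means of 8.74 ± 3.09 FPKM in SAHH-het and 3.60 ± 1.10 with betaine (SD, n = 3 each), and its log2 difference was -1.15 (SE 0.28, adjusted p = 0.517). Dll4 had 16.8 ± 8.81 and 6.34 ± 2.14 FPKM, and its log2 difference was -1.27 (SE 0.36, adjusted p = 0.553). Both were lower in each betaine library than in each SAHH-het library. Esam stood at -1.14 (SE 0.34, adjusted p = 0.559), Robo4 at -1.09 (SE 0.35, adjusted p = 0.559) and Rasip1 at -1.10 (SE 0.36, adjusted p = 0.559). Sox18 was at -1.27 (SE 0.44, adjusted p = 0.559) and Egfl7 at -1.0 (SE 0.35, adjusted p = 0.566), Egfl7 with overlapping groups. By role, 4 of 4 transcription factors and 11 of 11 receptors and ligands were lower in value. Among the capillary members, Aqp1 was at -0.41 (SE 0.43, adjusted p = 0.835), Kdr at -0.67 (SE 0.48, adjusted p = 0.746) and Plvap at 0.44 (SE 0.53, adjusted p = 0.863). The groups of all 3 overlapped, and the sign of Plvap changed when SAHH-het 1 was left out (-0.10). Gja4 was at -0.59 (SE 0.28, adjusted p = 0.633), Gja5 at 0.24 (SE 0.39, adjusted p = 0.905) and Bmx at 0.22 (SE 0.30, adjusted p = 0.888). Cdh5 was at -0.72 (SE 0.48, adjusted p = 0.719), Pecam1 at -0.57 (SE 0.50, adjusted p = 0.786), Vwf at 0.53 (SE 0.49, adjusted p = 0.806), Nos3 at -0.40 (SE 0.33, adjusted p = 0.774) and Sox7 at -0.81 (SE 0.46, adjusted p = 0.680).

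Between betaine-treated SAHH-het and SAHH-WT, 19 members were higher in value and 15 lower, with a median log2 difference of 0.04 against -0.02 over all genes. The test called 0 members and 0 genes in all (0%). With unadjusted p under 0.05 there were 1251 genes in all (5.09% higher, 2.93% lower), and among members 0 were higher and 1, Plvap, was lower. limma with voom called 0 members and had 1 at an unadjusted p under 0.05 (2.94%, all genes 7.32%). Groups did not overlap for 0 members on the higher side (background 9.29%) and for Plvap on the lower (background 7.64%). Plvap stood at -1.37 (SE 0.53, adjusted p = 0.618), since all its betaine libraries lay below all SAHH-WT ones. Nos3 had the next smallest p, at 0.61 (SE 0.33, adjusted p = 0.628). The median over members ran from -0.28 without SAHH-WT 1 to 0.27 without SAHH-WT 3, so its sign was not fixed. With each library rescaled to the same sum, all genes had a median of -0.35 and the members had the same, -0.35.

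Relative to Cdh5 in the same library, members differed much less between libraries. The median range over the 9 libraries was 1.13 in the log2 ratio to Cdh5, against 2.21 in the log2 level. Tie1, Mmrn2, Kdr, Erg and Flt1 kept closest to Cdh5. In SAHH-het against SAHH-WT, 5 of the other 33 members had ratios below every SAHH-WT library (Plvap, Vwf, Bmx, Gja5 and Calcrl), which was 15.2% of them and near the background of 18.3% of all genes, and 0 had ratios above (background 0.243%). Cdh5 was itself higher in value in SAHH-het, which lowers every ratio to it. Plvap was at 1.84, 0.693 and 0.358 of the level of Cdh5 in SAHH-WT, 0.0732, 0.175 and 0.130 in SAHH-het, and 0.564, 0.245 and 0.144 in SAHH-het+betaine. Vwf was at 0.0656 to 0.0861 in SAHH-WT, 0.0239 to 0.0403 in SAHH-het and 0.0486 to 0.127 in SAHH-het+betaine. With betaine against SAHH-het, 3 ratios were higher without overlap (Gja5, Vwf and Podxl, 9.09%, background 14.7%) and 3 were lower (Flt1, Sox18 and Dll4, 9.09%, background 0.372%). Here Cdh5 was itself lower in value with betaine, which raises every ratio to it and makes the background on the lower side small. These ratios were described and not tested, and they use the same libraries as the levels.

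**Figure D4:**
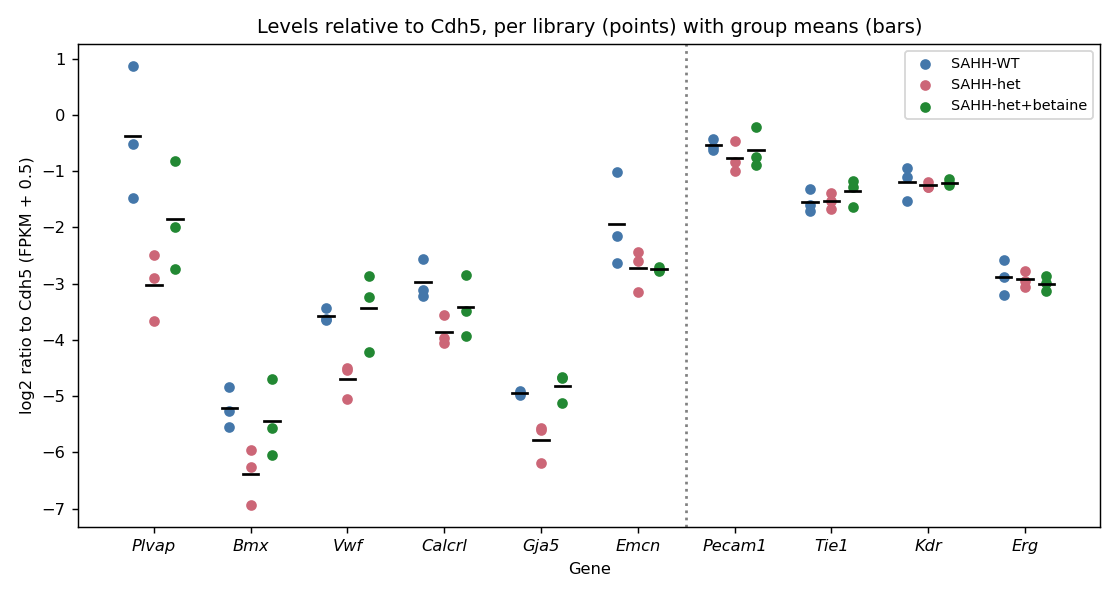
Log2 ratio to Cdh5, from FPKM + 0.5, for 10 members on either side of a dotted line, with 1 point per library and bars for group means. For Plvap, Bmx, Vwf, Calcrl and Gja5 the SAHH-het points lie below all SAHH-WT points, as they do for 18.3% of all genes, while those of Pecam1, Tie1, Kdr and Erg overlap.

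Other genes of the same pathways were read from 12 lists with 83 genes, of which 77 were tested. None of the 77 passed the test in any comparison. In SAHH-het against SAHH-WT 54 were higher in value and 23 lower (median 0.38), with 10 higher (13.0%, background 8.33%) and 4 lower (5.19%, background 8.28%) without overlap. With betaine against SAHH-het 24 were higher and 53 lower (median -0.33), with 4 higher (5.19%, background 8.21%) and 15 lower (19.5%, background 8.16%) without overlap. The 7 genes of microvascular endothelium were all higher in value in SAHH-het, with a median of 1.39 and 5 of them without overlap (71.4%, background 8.33%). All 7 were lower with betaine, with a median of -1.08 and 5 without overlap (71.4%, background 8.16%). They are part of the 77, so these 5 are also among the 10 higher and the 15 lower above. The shares of the 77 thus rest in part on this list. Gpihbp1, which holds lipoprotein lipase on capillary walls, was measured at 16.8, 30.9 and 44.5 FPKM in SAHH-WT, 101, 193 and 71.0 in SAHH-het, and 27.7, 30.8 and 46.2 in SAHH-het+betaine. The SAHH-het libraries were all above the other 6, and the log2 difference from SAHH-WT was 1.95 (SE 0.45, adjusted p = 0.282). The list sum was 160, 314 and 467 FPKM in SAHH-WT, 652, 892 and 549 in SAHH-het, and 282, 359 and 461 in SAHH-het+betaine, so here each of the 3 SAHH-het libraries lay above all others.

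Of the 11 Notch genes, 9 were higher in value in SAHH-het (median 0.40). Notch4, the Notch receptor of endothelium, was measured at 3.86, 4.38 and 5.52 FPKM in SAHH-WT, 9.998, 19.9 and 9.61 in SAHH-het, and 4.54, 5.52 and 8.02 in SAHH-het+betaine. Like Dll4, it was higher in every SAHH-het library than in the other 6, and its log2 differences were 1.36 (SE 0.31, adjusted p = 0.282) from SAHH-WT and -1.02 (SE 0.31, adjusted p = 0.559) with betaine. Of the 8 further arterial genes 6 were higher in value in SAHH-het (median 0.38), while Cytl1 (-1.58) and Gkn3 (-0.58) were lower. Of the 6 venous genes 4 were higher in value (median 0.69), while Vcam1 (-1.28) and Nr2f2 (-0.69) were lower. Lrg1, a secreted modifier of TGF-beta signalling carried by venous endothelium, was at 1.19 (SE 0.41, adjusted p = 0.358). Of the 8 VEGF ligands and co-receptors 6 were higher in value (median 0.52). Vegfa, the main ligand of Kdr, was at 0.64 (SE 0.23, adjusted p = 0.371) with overlapping groups, while Vegfc, the lymphatic ligand, was at -0.99 (SE 0.28, adjusted p = 0.331) with every SAHH-het library below SAHH-WT. Of the 6 BMP genes tested 5 were higher in value (median 0.59), Bmp6 among them at 1.43 (SE 0.54, adjusted p = 0.376). The 15 other endothelial transcription factors had a median of 0.20, with 11 higher, 7 junction partners a median of 0.23, with 5 higher, and 5 sphingosine 1-phosphate genes a median of 0.08, with 4 higher. The 4 adrenomedullin genes tested, ligand and partner receptors, were all lower in value (median -0.42), and so were the 2 apelin genes (median -0.12). Of 2 angiopoietin genes 1 was higher (median 0.13).

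Marker sums of other cell types differed between libraries and groups beside the endothelial genes. The 6 adventitial fibroblast genes summed to 124 to 183 FPKM in SAHH-WT, 74.8 to 95.5 in SAHH-het and 156 to 202 in SAHH-het+betaine. The SAHH-het libraries were thus below all others, the reverse of the microvascular genes. Brown adipocyte genes summed to 512, 4084 and 10327 FPKM in SAHH-WT, 13291, 6275 and 9768 in SAHH-het, and 4962, 10747 and 13311 in SAHH-het+betaine. They were not highest in SAHH-het 2, the library with the highest endothelial levels, but were lowest in SAHH-WT 1, where endothelial levels were lowest too. Skeletal muscle genes summed to 7127 FPKM in SAHH-het 1 and 1922 in SAHH-WT 1, against 1.96 to 1048 in the other 7 libraries. SAHH-het 1 was also the library lowest for Plvap, whose log2 difference from SAHH-WT was -1.27 without it. Cardiac muscle genes summed to 615 FPKM in SAHH-het+betaine 2 and 466 in SAHH-WT 2, against 1.79 to 124 in the others. White adipocyte genes summed to 484 to 1393 FPKM in SAHH-WT, 1227 to 1862 in SAHH-het and 1742 to 1963 in SAHH-het+betaine. B cell genes summed to 4.85 to 307, 11.2 to 20.6 and 22.9 to 152 FPKM and T cell genes to 1.83 to 39.4, 2.59 to 4.23 and 3.87 to 33.8, in the same order of groups. Lymphatic endothelial genes summed to 17.3 to 36.0 FPKM in SAHH-WT, 12.3 to 21.2 in SAHH-het and 14.9 to 17.5 in SAHH-het+betaine. Among them Prox1 was at 5.42 FPKM in SAHH-WT 1, the library with adrenal cortex genes, and at 0.133 to 0.853 in the others. The part of these cell types in the endothelial values was not tested.

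**Figure D5:**
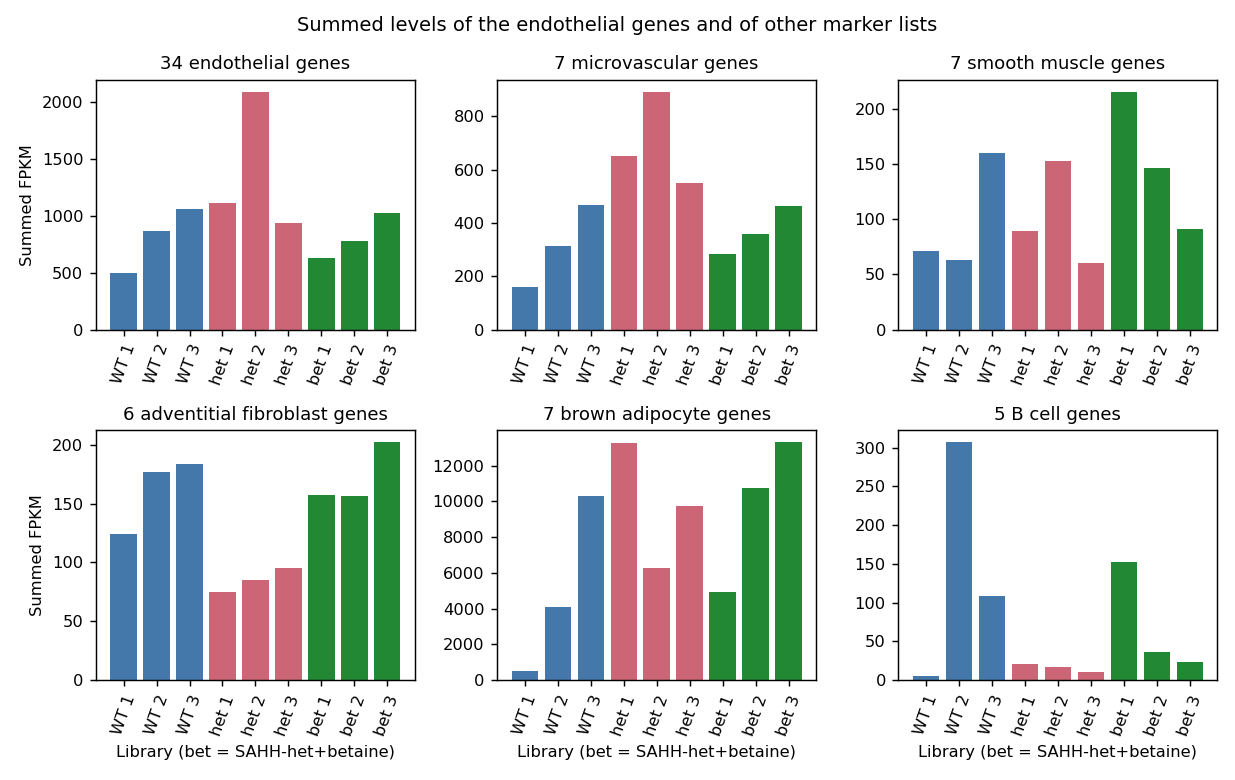
Summed FPKM per library (bars, coloured by group) of the 34 endothelial genes and of lists of microvascular, smooth muscle, adventitial fibroblast, brown adipocyte and B cell genes. Microvascular sums are higher and fibroblast sums lower in all 3 SAHH-het libraries than in the other 6, while the 34-gene sum is highest in SAHH-het 2 at 2090 FPKM.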

How the data were processed

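Mouse vascular tissue RNA gave 9 libraries. The series design text names paired reads of 150 bases from a NovaSeq and says that the authors compared groups with DESeq2 1.20.0. HISAT2 2.0.5 and the build mm10 are named for alignment, per the submitters' processing notes. The counter, its annotation and the FPKM formula were not given in the sources used here. FPKM were deposited by the authors, already scaled for exon length and by a divisor for each library, with 1 column per library. That divisor did not follow the recovered fragments. It was 2.04e+07 in SAHH-WT 1, with 15837600 fragments, and 1.38e+07 in SAHH-het 1, with 16090516. FPKM of all genes summed to 279298 in SAHH-WT 1, the lowest, and to 566309 in SAHH-het+betaine 3, the highest. Fragments were recovered from what 1 fragment is worth in each library and GENCODE M21 exon lengths (GRCm38, which mm10 names), and 97.1 to 97.3% of values came out whole within 0.1.

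Groups were taken from the genotype labels. limma 3.58.1 in R 4.3.3 (eBayes with a trend) was fitted to log2(FPKM + 0.5) of all 9 libraries with 3 group means, two-sided. It was run on 15610 genes, those averaging 0.5 FPKM or more, with Benjamini-Hochberg adjustment over all of them. Differences on this scale understate the change of low genes. The procedure was checked on simulated data. The members, the lists and the tests were chosen with earlier results of these data known. Library values were named for the 8 capillary and arterial members, for Pecam1, Cdh5, Vwf and Nos3, and for the 5 other members with the smallest p in each of the first 2 comparisons. From lists, the gene with the smallest p or a high mean could be named, and Notch4, Vegfa, Vegfc, Lrg1, Bmp6 and Gpihbp1 were. Prox1, Cytl1, Gkn3, Vcam1 and Nr2f2 were named after their values were seen. Sums over lists and ratios to Cdh5 are descriptions. Promoter windows are the 250 bases before the start in the RefSeq table (GRCm38.p6).

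Alternatives were other pseudocounts, filters and scalings, robust eBayes, only the groups compared, each library left out, and a replicate block. Deviations from group means correlated at 0.29, 0.23 and 0.18 between SAHH-WT and SAHH-het libraries of the same number. These were therefore taken as pairs in the block alternatives, from the data alone, while the reported fit used no block. Libraries of unequal number were not compared in this way. The other pairs of equal number correlated at -0.35 to 0.08. limma with voom on the recovered fragments, scaled by median ratios, and a fit without SAHH-WT 1 and SAHH-het 2 were added after seeing the data.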

Additional observations from a re-analysis of the deposited data

How the results depend on the processing

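No member was called in any of the 3 comparisons in the reported fit or in any of the 22 alternatives, and the lowest adjusted p of a member was 0.169. The count of all genes called in SAHH-het against SAHH-WT was 7 with no filter, 2 with TPM rescaling, 1 with the replicate block over all groups, 1 with only the 2 groups compared, and 1 to 4 with a library left out. With betaine against SAHH-het it was 1 with the block over all groups and 1 to 4 with a library left out. With betaine against SAHH-WT it was 3 with no filter and 0 to 1 with a library left out, the 1 arising without SAHH-het 2. The block in SAHH-WT and SAHH-het only, where the numbers were taken to pair the libraries, gave 5, 2 and 0 genes and changed no call of a member. The median of the members in SAHH-het against SAHH-WT was 0.055 with both SAHH-WT 1 and SAHH-het 2 left out and 0.37 to 1.03 with 1 library left out. With TPM rescaling the median of all genes was -0.26 and that of the members 0.51, with 28 of 34 above 0.

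Of 834 alternative values of the 18 members named by library, 11 changed sign, and the cause was not tested. For Gja5 in SAHH-het against SAHH-WT these were 0.041 with a pseudocount of 0.1, 0.094 with quantile normalization and 0.12 with voom, and its range with a library left out was -0.43 to 0.34. For Vwf that range was -0.76 to 0.10, and for Plvap with betaine against SAHH-het it was -0.10 to 1.06. Pecam1 was at -0.35 without SAHH-WT 1 and SAHH-het 2. Depth limits Bmx (29 to 95 fragments per library) and Gja5 (66 to 238) most. The 3 libraries per group limit the precision of every difference.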
